A study of Mus musculus with 6 samples.

Results

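The genes described here encode integrin chains of leukocytes and platelets. They are the beta chains Itgb2, Itgb7, Itgb1 and Itgb3 and the alpha chains Itgal, Itgam, Itgax, Itga4, Itga6 and Itga2b. They were taken by gene symbol from a deposited table of raw read counts with 25628 symbols, and all 10 were in it. An integrin is a cell surface receptor made of 1 alpha and 1 beta chain, and a chain that finds no partner is generally not carried to the surface. Integrins hold blood cells to other cells, to matrix or to fibrinogen, and signals inside the cell switch them between a resting and an active state. PU.1, the ETS transcription factor encoded by Spi1, is known in human myeloid cells to bind the promoters of ITGAM and ITGB2. Developing erythroblasts are known for the pair of the Itga4 and Itgb1 chains, which binds VCAM-1 on the central macrophage of the marrow island.

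The samples were bulk poly(A) RNA-seq libraries of mouse TgSpi1 erythroleukaemic cells, leukaemic blasts from bone marrow that overexpress SPI1. In 3 libraries the cells had been given doxycycline for 48 h, which switches on an shRNA against Spi1, and in 3 they had been left untreated. Both groups carried the transgene and the inducible shRNA and were grown with erythropoietin, and the labels call the 3 libraries of a group biological replicates and number them 1 to 3. Cells given doxycycline without the shRNA are not among these samples, so the drug and the loss of Spi1 cannot be told apart. The labels give all 6 libraries the same number and name no other leukaemia. In bulk RNA fewer cells that express a gene and less RNA per cell cannot be told apart either.

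Total counts lay between 78926663 and 101276319 per library. Spi1 stood at 84.7, 80.4 and 62.1 CPM (counts per 1e6 of the library total, scaled by TMM) with doxycycline, against 414, 353 and 329.5 CPM untreated (log2 fold change -2.27, SE 0.17, adjusted p = 0.0030). The fold changes are doxycycline over untreated on a log2 scale, from edgeR's quasi-likelihood test over 14158 genes, and a gene passed at an adjusted p under 0.05. The 12 erythroid markers were all present and summed to between 5037 and 6652 CPM with doxycycline and between 4293 and 5568 CPM untreated, with the transferrin receptor Tfrc at 3098 ± 479.6 CPM with doxycycline and 2101 ± 376 CPM untreated and the beta globin Hbb-bs at 775 ± 171 and 1010 ± 298 CPM (SD, n = 3 each). None of the 12 passed, and 2 fell and 6 rose when the replicate number was added as a block. For these and all later counts in gene lists, the shares over all genes tested were 2.18% lower and 0.417% higher without the block. With the block they were 15.6% lower and 10.3% higher. Libraries with the same replicate number deviated together from their group means, so the fit with the block is given for every member whose call it changes. For the related lists it is given as counts of genes. For single genes outside the members it is given only in part, so a gene shown without it may have changed its call.

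The members differed in their place in the genome, and 3 of the alpha chain genes share a stretch of chromosome 7 (GRCm38 throughout, GENCODE M21). Itgal (chromosome 7 from 127296260 to 127335138, plus strand) lies 727.5 kb before Itgam (128062640 to 128118491), and Itgax (128129547 to 128150657) follows Itgam after 11.1 kb. Itgb2 is on chromosome 10 (77530252 to 77565708), Itgb7 on chromosome 15 (102215995 to 102231944), Itgb1 on chromosome 8 (128685654 to 128733200), and Itga2b (102453297 to 102470122) and Itgb3 (104608000 to 104670476) are both on chromosome 11. Itga6 (71745616 to 71858416) and Itga4 (79255426 to 79333123) are on chromosome 2. All 10 are annotated as protein coding. Reads could be shared with other genes in 2 cases. The exons of Itgam overlap those of Gm49368 on the same strand over 3450 of its 5024 exon bases, and Gm49368 is not among the counted symbols. The exons of Itga4 overlap Cerkl on the other strand. Cerkl held 314 counts over the 6 libraries, against 192126 for Itga4.

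RefSeq promoter windows (GRCm38.p6, 250 bases before to 50 after the start) were on hand for 6 members, Itgam, Itgax, Itga4, Itgb1, Itgb7 and Itga2b. Itgb2, Itgal, Itgb3 and Itga6 were not searched. The windows were searched on both strands for GAGGAA, the core of the PU.1 site, which 28.3% of all 32851 windows hold, and for AGATAA, bound by factors of the Gata1 family, which 11.2% hold. The motifs do not overlap each other. GAGGAA was found 3 times in Itgam, 2 times in Itga2b and once each in Itgb1 and Itgb7, and not in Itga4 or Itgax, while AGATAA was found in Itgax and in none of the other 5. The 4 windows below, 280 bases each, are of members with counts high enough to test, of which Itgb7 and Itga2b had log2 fold changes below -1 and Itgb1 and Itga4 did not. Capitals mark the motif, read as TTCCTC where it lies on the other strand. The Itgb7 window is chr15:102231906-102232185 (minus strand), that of Itga2b chr11:102469854-102470133 (minus strand), that of Itgb1 chr8:128685404-128685683 (plus strand) and that of Itga4 chr2:79255176-79255455 (plus strand).
Itgb7: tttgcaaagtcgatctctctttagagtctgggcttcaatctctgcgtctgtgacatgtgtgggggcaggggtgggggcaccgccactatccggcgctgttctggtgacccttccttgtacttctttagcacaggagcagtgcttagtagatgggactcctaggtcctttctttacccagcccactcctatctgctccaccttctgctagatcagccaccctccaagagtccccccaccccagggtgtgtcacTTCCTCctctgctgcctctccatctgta
Itga2b: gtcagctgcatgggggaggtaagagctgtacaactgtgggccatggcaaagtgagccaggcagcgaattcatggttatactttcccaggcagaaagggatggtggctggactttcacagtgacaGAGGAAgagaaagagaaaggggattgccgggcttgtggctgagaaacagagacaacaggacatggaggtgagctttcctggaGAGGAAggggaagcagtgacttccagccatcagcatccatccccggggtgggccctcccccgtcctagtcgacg
Itgb1: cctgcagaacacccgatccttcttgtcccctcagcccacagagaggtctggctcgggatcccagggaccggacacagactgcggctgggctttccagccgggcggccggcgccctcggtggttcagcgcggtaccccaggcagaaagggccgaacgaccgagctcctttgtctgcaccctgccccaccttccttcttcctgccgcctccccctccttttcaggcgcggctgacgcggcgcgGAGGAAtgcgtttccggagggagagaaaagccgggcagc
Itga4: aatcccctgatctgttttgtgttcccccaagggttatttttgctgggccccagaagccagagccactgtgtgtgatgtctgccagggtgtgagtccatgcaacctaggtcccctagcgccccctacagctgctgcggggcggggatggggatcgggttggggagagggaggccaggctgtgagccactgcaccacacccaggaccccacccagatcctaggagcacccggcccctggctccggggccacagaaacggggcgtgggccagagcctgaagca
In Itgb7 the motif starts 3 bases into the transcript, in Itgb1 9 bases before the start, and in Itga2b 126 and 44 bases before it. Itgb7, which fell, and Itgb1, which did not, thus both hold the letters near the start. A match describes letters and not binding.

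Of the 10 members, 8 had enough reads to be tested, each with at least 288 counts in every library. Itgb2 and Itgb7 fell with doxycycline, and none rose. Over all genes tested 2.18% fell and 0.417% rose. At an unadjusted p under 0.05 there were 5 lower members and none higher, where 9.56% of all genes tested were lower and 5.86% higher. By DESeq2's adjusted p 4 members (Itgb2, Itgal, Itgb7 and Itga2b) fell and none rose, where DESeq2 called 4.19% of its genes lower and 1.94% higher. With the replicate number as a block 6 members fell, namely Itgb2, Itgal, Itgb7, Itga2b, Itgb3 and Itga6, and Itgb1 rose. The block called 15.6% of all genes lower and 10.3% higher. The median log2 fold change of the 8 members was -1.25, against 0.0065 for all genes tested. The members were chosen with earlier results of these data known, so these counts and medians describe them and are no independent test. The plot of CPM by library shows each member with its libraries joined by replicate number.

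**Figure D1:**
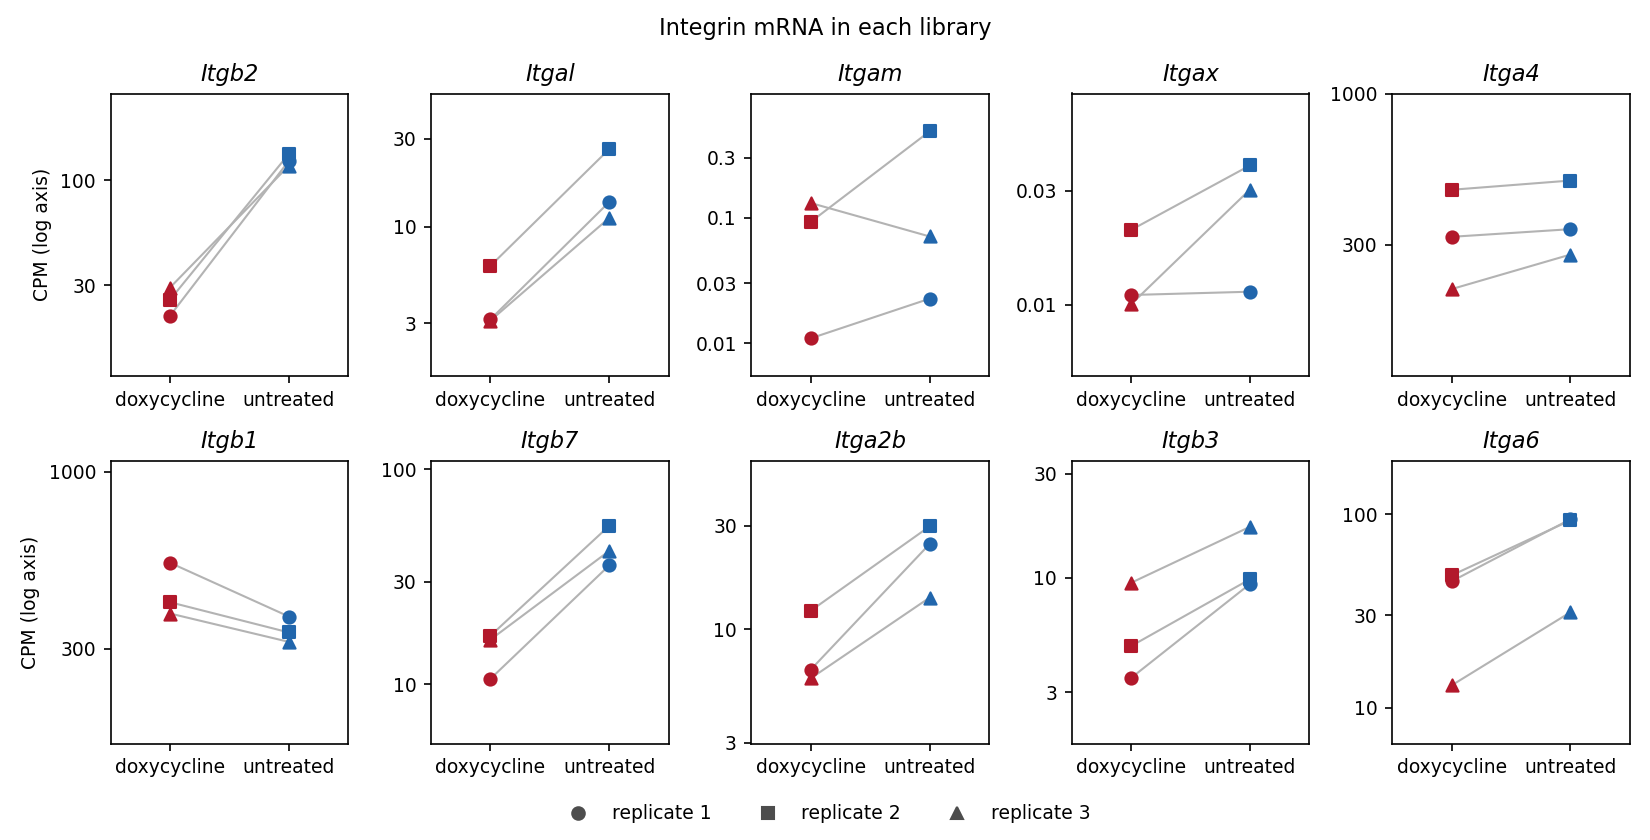
CPM of the 10 integrin genes (log axis, its range set per panel) in the doxycycline libraries (left, red) and the untreated libraries (right, blue). Marker shape gives the replicate number and grey lines join equal numbers. Lines climb to the right for Itgb2, Itgal, Itgb7, Itga2b, Itgb3, Itga6 and, by less, Itga4 in all 3 pairs and descend for Itgb1 in all 3, while Itgam and Itgax stay under 0.5 CPM.

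Itgb2 encodes the beta 2 chain, CD18, which the Itgal, Itgam and Itgax chains all need as a partner. It stood at 21.2, 25.4 and 29.2 CPM with doxycycline, against 125, 135 and 118 CPM untreated. The groups were far apart and neither spread widely. The log2 fold change came to -2.32 (SE 0.17, edgeR adjusted p = 0.0030), so that the level with doxycycline was 0.200 of the untreated one. Only 1.17% of all genes tested had a lower log2 fold change. Without single libraries the value lay between -2.43 and -2.21 and the adjusted p between 0.0070 and 0.041. Without both libraries of replicate number 1 or 2 the values were -2.20 and -2.27 with adjusted p of 0.23 and 0.14.

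Itgal encodes the alpha L chain, CD11a, which with the beta 2 chain forms LFA-1, the receptor for ICAMs. Its 3.16, 6.15 and 3.11 CPM with doxycycline stood below the 13.6, 26.4 and 11.2 CPM of the untreated libraries. Replicate 2 was the highest of its group in both, and the groups did not overlap. The log2 fold change of -2.04 (SE 0.42) missed the threshold without the block (edgeR adjusted p = 0.057) and passed with it (-2.02, SE 0.13, adjusted p = 3.8e-06). Differences within replicate numbers 1, 2 and 3 were -1.95, -2.01 and -1.69 on a log2(CPM + 0.5) scale.

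Itgam encodes the alpha M chain, CD11b, of the complement receptor of neutrophils and macrophages, and Itgax the alpha X chain, CD11c, of dendritic cells and some macrophages. Neither reached the level needed for a test. Whether reads of the exon bases that Itgam shares with Gm49368 were counted for Itgam is not known. Its low counts thus need not mean low Itgam mRNA. The deposited Itgam counts were 1, 9 and 13 with doxycycline, against 2, 38 and 7 untreated, where a deposited 1 appears to stand for no read. Itgax had counts of 1, 2 and 1 with doxycycline, against 1, 3 and 3 untreated, which is at or under the limit of 3 counts below which no level is read. The highest Itgam value, 0.484 CPM in untreated replicate 2, came in the library with the most S100a9, a calprotectin gene of neutrophils, at 14.9 CPM. S100a9 stood at 0.011, 4.08 and 3.27 CPM with doxycycline, against 0.034, 14.9 and 3.33 CPM untreated, and its partner S100a8 at 0.011, 3.02 and 2.58 CPM, against 0.0226, 11.3 and 2.68 CPM. The 8 neutrophil markers summed to between 0.0987 and 9.08 CPM with doxycycline and between 0.136 and 34.2 CPM untreated, and Ly6g, Elane and Csf3r had fewer than 10 counts in every library. What part neutrophil RNA has in the Itgam counts was not tested.

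Itgb7 encodes the beta 7 chain, which with the alpha 4 chain forms the receptor for the gut addressin MAdCAM-1. It stood at 10.6, 16.8 and 16.1 CPM with doxycycline, against 35.7, 54.5 and 41.7 CPM untreated. No doxycycline library reached the lowest untreated one. The log2 fold change came to -1.60 (SE 0.25, edgeR adjusted p = 0.023). Itgb7 also passed with the block (-1.60, SE 0.11, edgeR adjusted p = 7.9e-06). The call was lost without some single libraries, where the test also has fewer residual degrees of freedom. There the adjusted p was 0.082 without doxycycline replicate 1 and 0.054 without doxycycline replicate 2. It was 0.066 without untreated replicate 1 and 0.090 without untreated replicate 2. Without both libraries of a number it was at least 0.087. Over the 6 fits without a single library the log2 fold change lay between -1.72 and -1.42.

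Itga4 encodes the alpha 4 chain, CD49d, the partner of both the beta 7 and the beta 1 chain. Its 319.6, 465 and 211 CPM with doxycycline overlapped the 339.7, 500.3 and 277.5 CPM of the untreated libraries. In both groups replicate 2 was the highest and replicate 3 the lowest. The log2 fold change came to -0.17 (SE 0.32, edgeR adjusted p = 0.88), and -0.20 (SE 0.095, adjusted p = 0.16) with the block. Within numbers 1, 2 and 3 the differences were -0.09, -0.11 and -0.40, all downward, and the log2 fold change stayed below 0 without both libraries of any number (-0.21 to -0.10). Its sign turned where 1 library of a pair was left out, to 0.08 without doxycycline replicate 3 and to 0.10 without untreated replicate 2. A miss does not show that the level was the same.

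Itgb1 encodes the beta 1 chain, CD29, the most widely used partner of alpha chains. It stood at 538, 411 and 381 CPM with doxycycline, against 373, 335 and 314 CPM untreated. The groups were just apart, and the difference was upward in all 3 pairs (0.53, 0.30 and 0.28). The log2 fold change of 0.38 (SE 0.16) did not pass without the block (edgeR adjusted p = 0.33) and passed with it (0.37, SE 0.092, adjusted p = 0.015). Itgb1 was the single member with a log2 fold change above 0, and the value lay between 0.22 and 0.49 over all alternatives run.

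Itga6 encodes the alpha 6 chain, CD49f, of laminin receptors. It stood at 45.0, 48.3 and 13.04 CPM with doxycycline, against 94.1, 92.9 and 31.1 CPM untreated. Replicate 3 was the lowest in both groups, and untreated replicate 3 lay below doxycycline replicates 1 and 2. Within numbers 1, 2 and 3 the differences were -1.06, -0.94 and -1.22. The log2 fold change came to -1.04 (SE 0.57, edgeR adjusted p = 0.46) without the block and -1.09 (SE 0.098, adjusted p = 3.8e-05) with it.

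Itga2b and Itgb3 encode the alpha IIb (CD41) and beta 3 (CD61) chains of the fibrinogen receptor of platelets, and CD41 also marks early blood progenitors. Itga2b stood at 6.52, 12.2 and 5.94 CPM with doxycycline, against 24.7, 29.7 and 14.0 CPM untreated, and the groups did not overlap. Its log2 fold change came to -1.47 (SE 0.37, edgeR adjusted p = 0.10), and -1.48 (SE 0.15, adjusted p = 7.5e-05) with the block. Itgb3 stood at 3.49, 4.88 and 9.50 CPM with doxycycline, against 9.38, 9.86 and 17.1 CPM untreated. Here replicate 3 was the highest in both groups, and doxycycline replicate 3 lay just above untreated replicate 1. Its log2 fold change came to -1.03 (SE 0.42, edgeR adjusted p = 0.30), and -1.09 (SE 0.14, adjusted p = 3.9e-04) with the block.

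**Figure D2:**
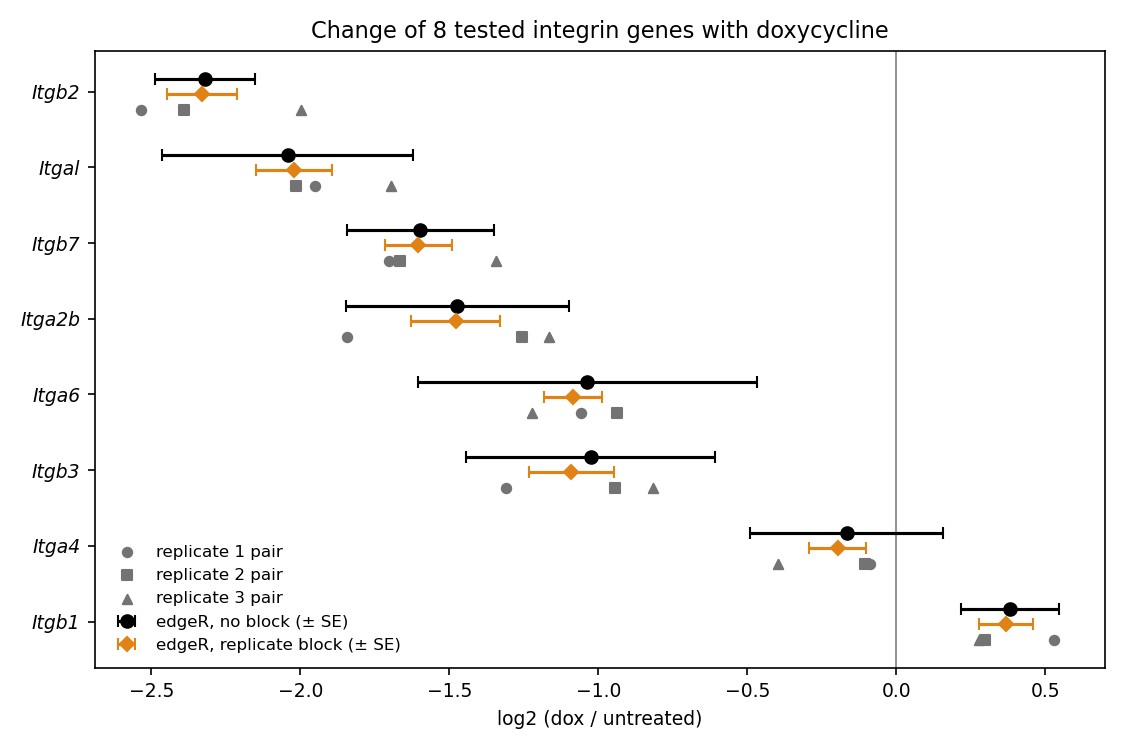
Log2 fold change of doxycycline over untreated for the 8 tested integrin genes, from edgeR without (black circles) and with (orange diamonds) the replicate block, bars showing ± 1 SE. Grey markers give the difference within each replicate number on a log2(CPM + 0.5) scale. Itgb2 lies furthest left at -2.32 and Itgb1 is the one gene right of 0, at 0.38, and bars are shorter with the block.

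Counted by whether the groups overlap, 4 of the 8 tested members, Itgb2, Itgal, Itgb7 and Itga2b, lay lower in every doxycycline library than in any untreated one, and Itgb1 lay higher. Over all genes tested these shares were 11.7% and 8.88%. Differences between replicate numbers were tested in the fit with the block, a test added after the values were seen. They passed for 7 of the 8 members, against 43.3% of all genes tested. Itga6 had the smallest adjusted p (2.7e-05) and Itgb2 was the member that did not pass (adjusted p = 0.41). The members did not share 1 pattern over the numbers: replicate 3 was lowest in both groups for Itga4, Itga6, Itga2b, Itgal and Itgb1 and highest in both for Itgb3.

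Levels of different genes were compared as CPM per kilobase of the longest annotated coding transcript. In doxycycline libraries Itgb1 led with 116 ± 21.8, followed by Itga4 with 33.97 ± 13.05, Itgb2 with 8.51 ± 1.36, Itga6 with 8.22 ± 4.52 and Itgb7 with 5.42 ± 1.27 CPM per kb (SD, n = 3). In untreated libraries Itgb1 led with 89.3 ± 7.86, followed by Itgb2 with 42.5 ± 2.90, Itga4 with 38.1 ± 11.8, Itga6 with 16.9 ± 8.36 and Itgb7 with 16.4 ± 3.58 CPM per kb (SD, n = 3). Neighbours in these orders were within their spread for Itgb2, Itga6 and Itgb7 with doxycycline, and for Itgb2 and Itga4 and for Itga6 and Itgb7 untreated. Itga2b was at 2.39 ± 1.0003 CPM per kb with doxycycline and 6.63 ± 2.34 untreated, Itgb3 at 1.03 ± 0.544 and 2.10 ± 0.751, and Itgal at 0.793 ± 0.334 and 3.27 ± 1.56 CPM per kb. Per kilobase of all annotated exons Itga4 had 23.7 and Itgb2 8.28 with doxycycline, and Itga4 26.6 and Itgb2 41.4 untreated, and Itgb7 stood above Itga6 in both groups, with 5.25 and 3.93 CPM per kb with doxycycline and 15.9 and 8.06 untreated. The order of Itga6 and Itgb7 and the gaps between genes thus depend on the length used.

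The make-up of the beta chain mRNAs differed between the groups. Of the summed CPM per kb of the 4 beta chain members, Itgb2 took 4.67%, 6.93% and 8.39% in the doxycycline libraries, against 27.2%, 29.3% and 28.3% in the untreated ones. Itgb7 took 2.59%, 5.08% and 5.13% with doxycycline, against 8.60%, 13.1% and 11.1% untreated. The share of Itgb1 was 92.3%, 87.3% and 85.1% with doxycycline, against 63.2%, 56.5% and 58.5% untreated. For each of these 3 chains the groups were apart. Shares of a common sum depend on each other, so a higher share of Itgb1 follows in part from lower Itgb2 and Itgb7. The shares were not tested. Itgb3 took between 0.395% and 1.40% with doxycycline and between 1.05% and 2.11% untreated, where the groups overlapped. The summed level itself was 153, 123 and 117 CPM per kb with doxycycline, against 155, 155 and 141 CPM per kb untreated.

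**Figure D3:**
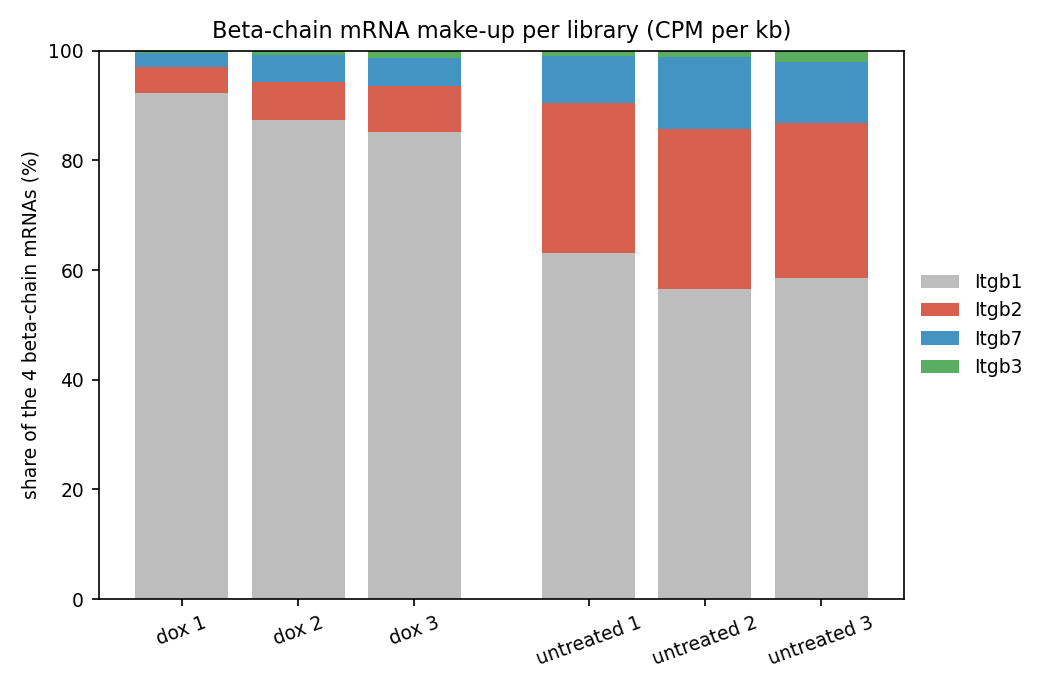
Share of each beta chain gene in the summed CPM per kb of Itgb1, Itgb2, Itgb7 and Itgb3, in percent, for each doxycycline (left) and untreated (right) library. The Itgb2 segment is at most 8.39% in doxycycline libraries and at least 27.2% in untreated ones.

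Whether 2 chains changed unequally was asked with their ratio within each library, which needs no scaling. There were 9 such ratios, and with 3 libraries against 3 the two-sided exact permutation test cannot give a p under 0.10. The ratio of Itgb2 to Itgb1, per kb, was 0.0505, 0.0795 and 0.0986 with doxycycline, against 0.431, 0.5195 and 0.484 untreated. On the log2 scale this was a difference of -2.70, with -3.09, -2.71 and -2.29 within the replicate numbers (exact permutation p = 0.10, the smallest possible, adjusted over the ratios 0.23). The ratio of Itgb3 to Itgb1 differed by -1.46 with the same exact p of 0.10 (adjusted 0.23).

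Among alpha chains and their partners, the ratio of Itga4 to Itgb7 was 8.26, 7.58 and 3.59 per kb with doxycycline, against 2.61, 2.52 and 1.83 untreated, a log2 difference of 1.41 (exact permutation p = 0.10, adjusted 0.23). The groups did not overlap. The ratio of Itga6 to Itgb1 differed by -1.46 (exact permutation p = 0.20, adjusted 0.30) and that of Itga4 to Itgb1 by -0.56 (exact permutation p = 0.30, adjusted 0.39), in the same direction within each number. Itgal against Itgb2 gave 0.31 (exact permutation p = 0.60, adjusted 0.60), with 0.45, 0.31 and 0.17 within the numbers, and without doxycycline replicate 2 the difference was -0.00033. Itga2b against Itgb3 gave -0.38 (exact permutation p = 0.50, adjusted 0.56), with -0.49, -0.27 and -0.38 within the numbers, and 0.21 without doxycycline replicate 3. The SD over libraries of a group was 0.60 and 0.55 for Itgal to Itgb2 and 1.05 and 1.04 for Itga2b to Itgb3, with doxycycline and untreated, which is more than these differences. The SD of the 3 differences within numbers was 0.14 for Itgal to Itgb2 and 0.11 for Itga2b to Itgb3, which is less than their means, and the exact sign permutation p was 0.25 for both, the smallest that 3 pairs allow. Ratios of Itgam and Itgax to Itgb2 are not given because of their counts.

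The genes most like Itgb2 and Itga2b were sought among 9293 other genes of at least 5 CPM, by the root mean square distance of their log2(CPM + 0.5) values over the 6 libraries, each centred on its own mean. Closest to Itgb2 were Pstpip2, an adaptor of myeloid cells (distance 0.0621), Laptm5, found in lysosomes of haematopoietic cells (0.131), Cd84, a SLAM family receptor (0.133), Cat, catalase (0.212), and Adgrg7 (0.227), where the median gene lay at 1.19. Pstpip2 stood at 4.59 ± 0.860 CPM with doxycycline and 25.4 ± 1.07 CPM untreated (SD, n = 3 each). Closest to Itga2b were Cd274, which encodes PD-L1 (0.159), Zbtb34 (0.216), Papss2, a sulphate donor synthase (0.217), Acap1 (0.242) and Arhgap18 (0.247), against a median of 0.856. Cd274 stood at 13.7 ± 4.23 CPM with doxycycline and 35.8 ± 11.6 CPM untreated (SD, n = 3 each). These distances describe 6 libraries that differ by treatment and by number, and carry no test.

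Of the other integrin chains, 11 of 16 were in the table and 7 were tested. Itgb4, the partner of the alpha 6 chain in epithelia, fell (log2 fold change -2.23, SE 0.44, edgeR adjusted p = 0.048) at a low level, with 0.132, 0.205 and 0.0702 CPM with doxycycline, against 0.781, 0.675 and 0.465 CPM untreated. The call was lost whichever of the 6 libraries was left out, with adjusted p between 0.058 and 0.19. It was also lost when 1 was taken off each value (adjusted p = 0.053) and with no low-count filter (0.074). With the block Itgb4 passed (-2.26, SE 0.30, edgeR adjusted p = 4.4e-04). No other passed, also not with the block. The median log2 fold change of the 7 was -0.03. Itga5, the fibronectin receptor chain, stood at 31.7 ± 4.77 CPM with doxycycline and 25.8 ± 2.15 CPM untreated, and Itgav, the vitronectin receptor chain, at 18.3 ± 6.26 and 18.6 ± 4.37 CPM (SD, n = 3 each). Both were picked after their values were seen, as the most abundant of the 7.

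Of 19 tested genes of integrin activation 2 fell and none rose, with a median of -0.49. The list holds the RAP1, talin and kindlin machinery that switches integrins on from inside. It also holds genes that act against that machinery, and Rasgrp4, which belongs to neither kind. With the block 14 fell and Rap1gap, which switches RAP1 off, rose (1.52, adjusted p = 5.7e-04; named after its value was seen). Of the other genes that act against activation, Sipa1, Sharpin and Flna were among the 14 that fell, and Itgb1bp1 and Dok1 passed neither fit. The 14 are thus not a count of the switching-on machinery alone. Rasgrp4, a Ras activator of myeloid and mast cells, stood at 0.0439, 0.0719 and 0.0502 CPM with doxycycline, against 0.974, 1.24 and 0.728 CPM untreated, from 4, 7 and 5 counts and 86, 97 and 72 counts (-4.11, SE 0.38, edgeR adjusted p = 0.0058). Rassf5, also RAPL, which links active RAP1 to LFA-1, stood at 0.537, 1.37 and 0.833 CPM with doxycycline, against 3.51, 6.56 and 4.38 CPM untreated (-2.40, SE 0.42, edgeR adjusted p = 0.032). Leaving out any library other than doxycycline replicate 2 took Rassf5 over the threshold, to at most 0.12. With the block Rassf5 passed (-2.44, SE 0.17, edgeR adjusted p = 8.3e-06). The abundant partners of the beta tail, Tln1 (talin) and Fermt3 (kindlin-3), picked after their values were seen, did not pass without the block. Fermt3 stood at 317, 399 and 323 CPM with doxycycline, against 474, 469.9 and 514 CPM untreated (-0.50 with the block, adjusted p = 0.0061), and Tln1 had -0.93 with the block (adjusted p = 0.0023).

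Downstream of integrins, 3 of 18 tested genes of adhesion and outside-in signalling fell and none rose, with a median of -0.57, and with the block 10 fell and 1 rose. Vasp, an actin filament elongation factor at adhesion sites, stood at 115, 117 and 117 CPM with doxycycline, against 260.1, 229.9 and 214 CPM untreated (-1.01, SE 0.13, edgeR adjusted p = 0.014). Lyn, a SRC family kinase, stood at 35.7 ± 6.81 CPM with doxycycline and 81.4 ± 8.18 CPM untreated (-1.19, SE 0.18, adjusted p = 0.023), and Lims1, the PINCH adaptor of integrin-linked kinase, at 54.3 ± 6.08 and 99.4 ± 6.55 CPM (-0.87, SE 0.14, adjusted p = 0.027; SD, n = 3 each). With single libraries left out between 0 and 2 genes of the list fell. Lims1 was lost without each of the 6 libraries, Lyn without each but untreated replicate 3, and Vasp without doxycycline replicate 1 and untreated replicates 1 and 2, with adjusted p of at most 0.13. The riser with the block was Ptk2, focal adhesion kinase (0.46, adjusted p = 0.0095), named after its value was seen.

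Icam1 and Icam2, ligands of LFA-1, fell. Icam1 stood at 1.141, 1.29 and 1.28 CPM with doxycycline, against 7.26, 7.01 and 6.61 CPM untreated (log2 fold change -2.49, SE 0.21, edgeR adjusted p = 0.0041). Icam2 stood at 15.9, 12.99 and 10.9 CPM with doxycycline, against 47.5, 30.9 and 30.2 CPM untreated (-1.45, SE 0.24, adjusted p = 0.029), and of the 6 libraries untreated replicate 3 was the one whose omission kept its call, with adjusted p of at most 0.089 otherwise. These were 2 of 10 tested ligand genes, none rose, and the median was -0.28. With the block 4 fell, among them Icam1 and Icam2 (edgeR adjusted p = 3.7e-06 and 1.4e-05). Vwf, von Willebrand factor, rose with the block (0.999, adjusted p = 0.0054). Icam4, the ICAM of red cells, stood at 16.6 ± 2.09 CPM with doxycycline and 13.1 ± 2.16 CPM untreated (SD, n = 3 each) and passed neither fit. Vwf and Icam4 were named after their values were seen. The ligands of the alpha 4 chain, Vcam1, Madcam1 and Fn1, had fewer than 10 counts in every library. Of 7 tested membrane proteins that associate with integrins none passed, and with the block Plaur, the urokinase receptor, fell, and Bsg, Slc3a2 and Cd151 rose (Plaur, Slc3a2 and Cd151 are likewise named after their values were seen). The 2 most abundant were Cd47 (556 ± 57.1 CPM with doxycycline and 489 ± 23.2 CPM untreated) and Bsg, basigin (489.9 ± 76.7 and 360.5 ± 38.6 CPM; SD, n = 3 each).

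**Figure D4:**
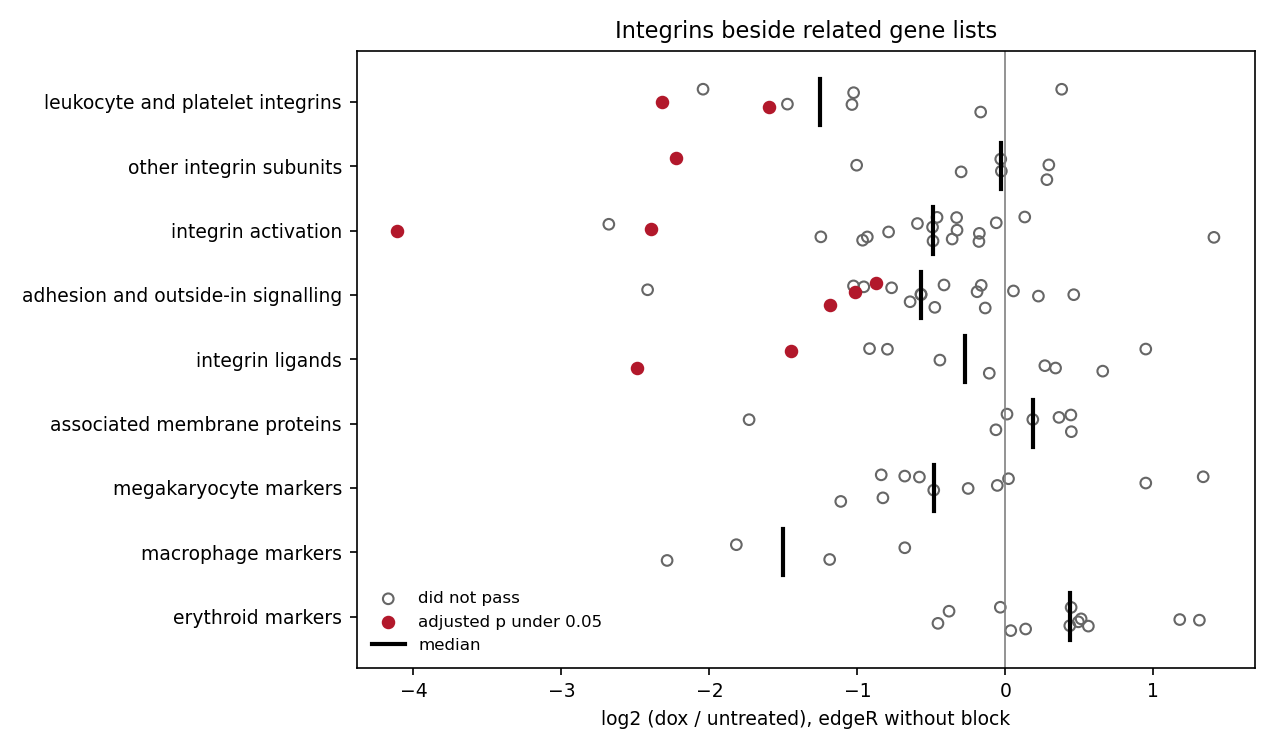
Log2 fold change of doxycycline over untreated, from edgeR without the block, for every tested gene of the integrin group and of 8 related lists, 1 point a gene, spread vertically for legibility. Filled points had an adjusted p under 0.05 and black bars are list medians. The integrin group has a median of -1.25, and the activation and signalling lists lie at -0.49 and -0.57.

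Levels of markers of other blood cells were read beside the integrins. Itgb2 stood at 21.2 to 29.2 CPM with doxycycline and 118 to 135 CPM untreated. Of the 8 macrophage markers 7 were in the table and 4 were tested. Their sum lay between 1.36 and 2.84 CPM with doxycycline and between 4.88 and 10.7 CPM untreated. These levels do not show what part of the Itgb2 RNA came from macrophages. None of the 4 tested macrophage markers passed without the block and 3 fell with it. Lyz2 stood at 0.839 ± 0.525 CPM with doxycycline and 4.11 ± 3.15 CPM untreated, and Cd68 at 0.905 ± 0.198 and 2.06 ± 0.314 CPM (SD, n = 3 each). Mrc1, Cx3cr1 and Mertk had fewer than 10 counts in every library. The 12 megakaryocyte markers summed to between 135 and 220.2 CPM with doxycycline and between 197 and 375 CPM untreated, none of the 11 tested passed, and 4 fell and 2 rose with the block. Their most abundant gene, Pf4, platelet factor 4, stood at 141.5, 94.0 and 22.9 CPM with doxycycline, against 259.9, 165 and 37.4 CPM untreated. It was lowest in replicate 3 of each group, as Itga2b, Itga6, Itgal, Itga4 and Itgb1 were. Gp5, a platelet glycoprotein, stood at 66.7, 85.3 and 99.8 CPM with doxycycline, against 97.7, 109 and 145 CPM untreated. It was highest in replicate 3 of each group, as Itgb3 was, so these markers did not share 1 pattern over the numbers. What part such cells have in the integrin values was not tested.

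Mast cell and basophil, dendritic and lymphoid markers were also read. Of the first, 4 of 6 were tested, none passed and 3 fell with the block. Fcer1a, a chain of the IgE receptor, stood at 50.5, 23.2 and 8.40 CPM with doxycycline, against 61.3, 34.8 and 2.65 CPM untreated, and Ms4a2, another of its chains, at 0.834, 0.996 and 0.321 CPM, against 6.78, 10.3 and 1.77 CPM. The mast cell list summed to between 9.09 and 51.6 CPM with doxycycline and between 5.37 and 68.6 CPM untreated, and Mcpt8 had fewer than 10 counts in every library. Dendritic markers summed to between 2.96 and 11.5 CPM with doxycycline and between 1.31 and 6.17 CPM untreated, and 1 fell and 1 rose with the block. Zbtb46 made up most of that sum and stood at 2.80, 3.40 and 11.2 CPM with doxycycline, against 0.951, 1.24 and 5.73 CPM untreated, Cd74 stood at or under 0.765 CPM, and Flt3, Xcr1 and Siglech had fewer than 10 counts. Lymphoid markers summed to at most 0.956 CPM in any library, with Cd79a at 0.484 CPM or less.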

How the data were processed

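Poly(A) RNA was sequenced after Illumina TruSeq v2 library preparation, per the labels' protocols, a kit that does not mark strand. The authors deposited raw read counts per gene symbol for 6 libraries. bcl2fastq 2.17.1.14, the aligner STAR, DESeq2 and the build mm10 (GRCm38) stand in the submitters' processing notes with no role or order. The read counter and its annotation are not named in the sources used here. The smallest value in each column of the deposited counts was 1, so 1 appears to have been added, and the values were used as deposited.

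Groups were compared in R 4.3.3 with the two-sided quasi-likelihood test of edgeR 4.0.16 (with limma 3.58.1), with TMM scaling and filterByExpr, which kept 14158 genes, with group as the only term and Benjamini-Hochberg adjustment over all of them. An SE is the absolute log2 fold change over the root of its F statistic. DESeq2 1.42.0 was an alternative. The replicate numbers were taken to pair the libraries because deviations from the group means correlated at 0.83, 0.83 and 0.75 for numbers 1, 2 and 3 across genes. What a number marks (a day or a culture) is not in the labels. Residual degrees of freedom were 4 without and 2 with the block, which lowered the biological coefficient of variation from 28.6% to 11.3%. No 2 libraries agreed within sampling noise, with a chi-square per gene between 193 and 443 within groups. The labels call the libraries biological replicates without saying whether they came from separate cultures, so p-values measure the spread between these libraries, which may be technical in part. The total counts make counting error small above 5 CPM.

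The members and the related gene lists were chosen with earlier results of these data known. Named genes outside the members were Spi1, up to 5 genes per list with the smallest adjusted p under 0.05 (where none passed, the 2 most abundant), and the 5 closest to Itgb2 and to Itga2b. Counts of 3 were the floor for a level. A planned search of the proteins for tail and metal-site motifs was not run. A few marker genes are not reported here.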

Additional observations from a re-analysis of the deposited data

How the results depend on the processing

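The edgeR fit without the block called 308 genes lower and 59 higher, and 2 integrin members lower and none higher. With the replicate block the counts were 2206 lower and 1452 higher, and 6 and 1 for the members. DESeq2 gave 636 lower and 294 higher genes and 4 lower members, and DESeq2 with the block 1660 and 1736 genes and 6 and 1 members. RLE scaling and taking 1 off each value gave 2 lower members, and no low-count filter gave 3, with Itgal added. Without a single library the counts were 35 to 242 genes lower, 0 to 26 higher, and 1 to 2 members lower. The 0 was without untreated replicate 2, where 444 genes were higher at an unadjusted p under 0.05. Without both libraries of a replicate number, an alternative chosen after seeing the data, they were 0 to 186 genes lower, 0 to 15 higher and 0 to 1 members lower. The zeros were without number 1, with 813 genes and 3 members lower and 378 genes higher at an unadjusted p under 0.05, and without number 2, with 1062, 4 and 564. Itgb2 then had -2.20 and -2.27 (adjusted p = 0.23 and 0.14). With fewer libraries the tests have fewer residual degrees of freedom.

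Directions of the 8 tested members held under every alternative, apart from Itga4, which turned to 0.08 without doxycycline replicate 3 and 0.10 without untreated replicate 2, within -0.49 to 0.10 over single libraries left out. The ratio of Itgal to Itgb2 turned to -0.00033 without doxycycline replicate 2 (at most 0.63 over such omissions) and that of Itga2b to Itgb3 to 0.21 without doxycycline replicate 3 (at least -0.98). The cause was not tested. Pairing by number cannot change the mean difference of a ratio, so its equality is no check. The exact sign permutation p was 0.25 for each ratio, the smallest possible.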
